A study of Homo sapiens with 16 samples.

Results

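The 10 genes described here encode proteins of the insulin-like growth factor (IGF) axis. They are the IGF binding proteins IGFBP3, IGFBP4, IGFBP5 and IGFBP6, the pappalysins PAPPA and PAPPA2, the receptors IGF1R and INSR, and the receptor substrates IRS1 and IRS2. They were taken by gene name from the 58735 genes of the deposited count table, and the set was chosen by its measured counts in SUM159, where IGFBP3 and PAPPA2 were much higher with the inhibitor than without it. All 10 were among the 17647 genes with enough counts to be tested, although IGFBP5 and PAPPA2 passed that filter only through their counts in SUM159. Because the SUM159 values led to the choice, the differences of these genes with the inhibitor in SUM159 are given as descriptions with no p-value. No p-value is given either for IGFBP5 and PAPPA2 in any comparison, or for IGFBP3 between the lines.

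RNA was sequenced from the human cell lines MDA-MB-231 and SUM159, the second titled SUM159PT, both of triple-negative breast cancer origin and both labelled wild type. The groups were MDA-MB-231 given 8 uM of YES1i, MDA-MB-231 given DMSO, SUM159 given 8 uM of YES1i and SUM159 given DMSO, each for 48 h and with 4 libraries, 16 in all. YES1i stands for the compound CH6953755, which inhibits YES1, a kinase of the Src family, and DMSO is its solvent. MDA-MB-231 was plated in RPMI and SUM159 in Ham's F12, so line and medium cannot be told apart in any comparison between the lines. Each line is a single cell line and not a sample of tumours, and the series text calls the 4 libraries of a group technical replicates. The p-values therefore measure only the spread between these libraries.

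IGF-I and IGF-II act through IGF1R, a receptor tyrosine kinase related to the insulin receptor INSR. Binding proteins in the medium hold most IGF away from the receptor, and proteases such as the pappalysins release it by cutting them. PAPP-A, the product of PAPPA, cuts IGFBP4 and also IGFBP5, while PAPP-A2, the product of PAPPA2, cuts IGFBP3 and IGFBP5. The stanniocalcins STC1 and STC2 inhibit both proteases. Activated receptors signal through IRS1 and IRS2 to PI3 kinase and AKT, and AKT keeps FOXO transcription factors out of the nucleus. INSR and IRS2 are known FOXO target genes.

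The promoters of 4 genes are shown because these genes had the largest log2 differences with YES1i in SUM159 among the 10. They are the RefSeq sequences of GRCh38.p14 (250 bases before to 50 after the annotated start), written 5′ to 3′ along the gene's strand. Capitals mark matches, on either strand, to the AP-1 motif TGANTCA, the forkhead motif GTAAACA, the TEAD motif GGAATG, the E-box CACGTG, the GC box GGGCGG and the TATA box TATAAA; a match on the other strand stands as its reverse complement. The IGFBP3 promoter lies at chr7:45921223-45921522 on the minus strand, IGFBP5 at chr2:216695500-216695799 on the minus strand, PAPPA at chr9:116153541-116153840 on the plus strand and PAPPA2 at chr1:176462925-176463224 on the plus strand. IGFBP5 and PAPPA were added to this set after their values were seen.
IGFBP3: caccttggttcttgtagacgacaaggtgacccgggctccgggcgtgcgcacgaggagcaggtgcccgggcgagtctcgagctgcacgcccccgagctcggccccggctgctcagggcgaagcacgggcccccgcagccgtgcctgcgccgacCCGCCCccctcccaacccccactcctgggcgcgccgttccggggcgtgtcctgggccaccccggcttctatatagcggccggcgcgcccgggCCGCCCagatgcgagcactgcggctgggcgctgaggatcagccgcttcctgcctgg
IGFBP5: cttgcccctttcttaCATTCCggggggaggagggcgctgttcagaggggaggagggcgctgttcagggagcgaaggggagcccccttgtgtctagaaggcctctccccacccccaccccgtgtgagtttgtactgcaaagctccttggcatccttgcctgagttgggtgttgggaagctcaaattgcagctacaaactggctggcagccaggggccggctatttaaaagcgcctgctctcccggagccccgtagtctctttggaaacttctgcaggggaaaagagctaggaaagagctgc
PAPPA: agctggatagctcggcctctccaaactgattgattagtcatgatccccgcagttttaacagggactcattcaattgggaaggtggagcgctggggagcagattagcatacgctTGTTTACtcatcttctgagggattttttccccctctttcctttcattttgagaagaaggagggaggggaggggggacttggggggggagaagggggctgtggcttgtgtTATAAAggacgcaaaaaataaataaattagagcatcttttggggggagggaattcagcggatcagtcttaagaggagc
PAPPA2: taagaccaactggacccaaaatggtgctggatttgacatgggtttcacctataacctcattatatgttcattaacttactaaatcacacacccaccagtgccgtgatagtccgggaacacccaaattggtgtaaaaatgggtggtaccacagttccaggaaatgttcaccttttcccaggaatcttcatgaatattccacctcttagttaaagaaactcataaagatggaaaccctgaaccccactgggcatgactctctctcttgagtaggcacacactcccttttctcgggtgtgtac

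The 4 windows differ in base composition, with 74.7% G and C in IGFBP3, 59.0% in IGFBP5, 48.7% in PAPPA and 44.0% in PAPPA2, against a median of 58.7% over 35116 RefSeq promoters of the same length. IGFBP3 held 2 GC boxes, a motif present in 45.0% of all these promoters. IGFBP5 held 1 TEAD motif (present in 4928 of the 35116). PAPPA held 1 forkhead motif (3.42% of promoters) and 1 TATA box (11.5%), and PAPPA2 held no match to any of the 6 motifs. No motif was therefore shared by the 4 windows. AP-1 motifs were found in none of the 10 genes' promoters (7.71% of all promoters), and E-boxes in that of IRS1 alone (7.26%). Forkhead motifs occurred in IGFBP6 as well as PAPPA, and neither INSR nor IRS2 held one in this window. These matches describe letters in a short window and not bound sites.

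The libraries held 15876171 to 36261542 counts each. Levels are CPM, that is, counts scaled to each library's TMM-adjusted total. At 3 counts, a gene with none in a library could have had up to 0.0859 to 0.194 CPM, and such limits cover counting error only. YES1 itself was measured in every library and averaged 93.3 ± 5.32 CPM with YES1i and 94.3 ± 3.92 CPM with DMSO in MDA-MB-231, and 88.9 ± 7.58 CPM with YES1i and 103 ± 3.61 CPM with DMSO in SUM159. It was lower with YES1i in SUM159, at -0.21 on the log2 scale (edgeR adjusted p = 0.00392), and not called in MDA-MB-231 (-0.02, edgeR adjusted p = 0.86). An inhibitor of kinase activity need not alter this transcript, so the level does not check the treatment. The share of counts in mitochondrial rRNA was 1.29 to 1.39% with YES1i and 0.619 to 0.678% with DMSO in MDA-MB-231, and 1.28 to 1.49% with YES1i and 0.658 to 0.810% with DMSO in SUM159. Its part in the differences below was not tested. In SUM159, YES1i library 2 stood further from its group than the others (chi-square over degrees of freedom of 12.3 to 23.8 in its pairs, against 3.97 to 6.51 in pairs without it). Without it, log2 fold changes of the 10 genes with YES1i in SUM159 ran from 0.06 for IRS2 to 4.02 for PAPPA2. SUM159 DMSO library 1, the deepest, had 7.43 to 17.4 in its pairs, against 3.51 to 7.22 in pairs without it. Leaving it out gave 4.30 for PAPPA2, 2.92 for IGFBP5, 2.49 for IGFBP3 and -0.01 for IRS2.

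The labels were checked on marker genes. PGR had 0 to 4 counts in any group and ESR1 averaged 0.0589 to 0.608 CPM in the 4 groups, while ERBB2 averaged 108 to 118 CPM. Of 7 fibroblast markers, 4 reached 1 CPM in MDA-MB-231 with YES1i and 3 with DMSO, against 5 in each SUM159 group. Their summed level was 52.2 to 58.2 CPM with YES1i and 66.1 to 69.8 CPM with DMSO in MDA-MB-231, where DCN was at 0, and 758 to 935 CPM with YES1i and 775 to 910 CPM with DMSO in SUM159, mostly from COL1A1. Of 7 epithelial markers, 5 reached 1 CPM in each MDA-MB-231 group and 3 in each SUM159 group, where CDH1 and KRT19 were at 0 and KRT8 averaged 254 CPM with YES1i and 289 CPM with DMSO. Their sum was 1195 to 1377 CPM with YES1i and 1527 to 1666 CPM with DMSO in MDA-MB-231, and 326 to 375 CPM with YES1i and 418 to 454 CPM with DMSO in SUM159. Of 5 mesenchymal markers, 3 reached 1 CPM in MDA-MB-231 with YES1i and 5 in each other group. Their sum, largely from VIM and the matrix protein FN1, was 3334 to 3623 CPM with YES1i and 1446 to 1527 CPM with DMSO in MDA-MB-231, and 10970 to 11440 CPM with YES1i and 8607 to 9548 CPM with DMSO in SUM159. FN1 averaged 2626 CPM with YES1i and 615 CPM with DMSO in MDA-MB-231, and 7237 CPM with YES1i and 5661 CPM with DMSO in SUM159. With YES1i the epithelial sum was thus lower and the mesenchymal sum higher in both lines, without overlap of the groups. In MDA-MB-231, single markers did not all follow the sums. FN1 (log2 fold change 2.09) and ZEB1 (0.31) were called higher there, but VIM (-0.14) and SPARC (-1.49) lower. CDH2 had -0.59 and was not called. Of the epithelial markers, KRT8 (-0.54) and KRT18 (-0.56) were called lower there, but KRT19 (0.21) higher. Of the mesenchymal markers in SUM159, FN1 (0.35), VIM (0.32) and ZEB1 (0.20, with overlapping groups) were called higher. SPARC (0.03) and CDH2 (0.08) were not called in SUM159. Of 5 endothelial markers, 2 reached 1 CPM in each group, summing to 14.8 to 18.5 CPM with YES1i and 6.27 to 9.16 CPM with DMSO in MDA-MB-231, and 18.3 to 20.1 CPM with YES1i and 10.00 to 11.9 CPM with DMSO in SUM159, where the endothelial cadherin CDH5 was at 0. Of 6 leukocyte markers at most 2 reached 1 CPM in any group. The part of these levels in the results was not tested.

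**Figure D1:**
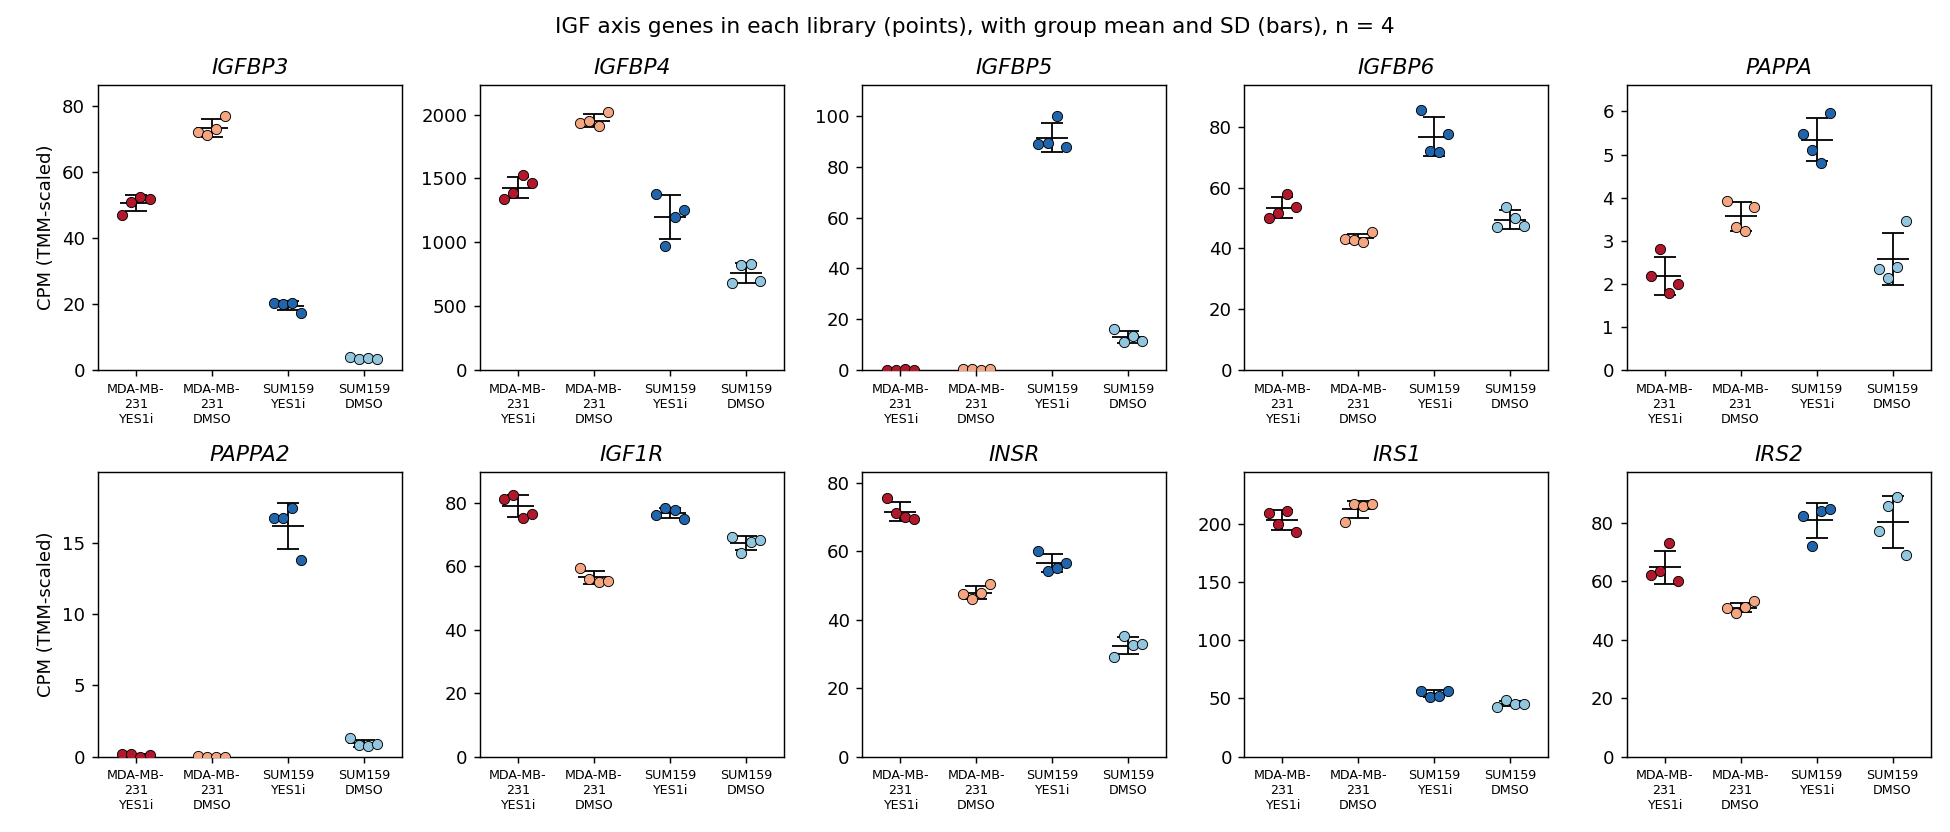
Level of each of the 10 genes (y axis, CPM scaled by TMM, linear and starting at 0) in MDA-MB-231 with YES1i, MDA-MB-231 with DMSO, SUM159 with YES1i and SUM159 with DMSO (x axis); points are libraries and bars are the mean and SD of 4. IGFBP3 and IGFBP4 were highest in MDA-MB-231 with DMSO, while IGFBP5, PAPPA and PAPPA2 were highest in SUM159 with YES1i.

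With YES1i, IGFBP3 fell in MDA-MB-231 and was several fold higher in SUM159. IGFBP3 (ENSG00000146674, hg38 chr7:45912245-45921874, minus strand) encodes the main carrier of IGF in blood, which also restrains growth of many cells. In MDA-MB-231 it had 47.1, 51.1, 52.3 and 52.0 CPM with YES1i, against 72.2, 71.1, 73.2 and 77.1 CPM with DMSO. In SUM159 it had 20.3, 19.9, 20.4 and 17.4 CPM with YES1i, against 3.92, 3.29, 3.72 and 3.29 CPM with DMSO. The groups did not overlap in either line, and every SUM159 library stayed below every MDA-MB-231 library. In bulk RNA, a change in the number of expressing cells and a change in RNA per cell cannot be told apart. The log2 fold change was -0.54 ± 0.06 (SE) in MDA-MB-231 (edgeR adjusted p = 3.3e-08) and 2.43 ± 0.09 in SUM159, a 5.38-fold higher level.

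IGFBP4 (ENSG00000141753, chr17:40443461-40457731, plus strand), a binding protein that mainly inhibits IGF action, had the highest level per kilobase of the 4. It had 1341, 1383, 1524 and 1463 CPM with YES1i in MDA-MB-231, against 1934, 1952, 1908 and 2019 CPM with DMSO. SUM159 had 1380.2, 968, 1199 and 1256 CPM with YES1i, against 685, 825, 829.6 and 699 CPM with DMSO. IGFBP4 thus lay lower with YES1i in all MDA-MB-231 libraries and higher in all SUM159 libraries, with changes on the log2 scale of -0.45 ± 0.08 in MDA-MB-231 (edgeR adjusted p = 0.000138) and 0.66 ± 0.08 in SUM159. The YES1i groups of the 2 lines overlapped, whereas the DMSO groups did not.

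IGFBP5 (ENSG00000115461, chr2:216672105-216695525, minus strand) encodes a protein that binds IGFs and extracellular matrix. Its RNA was close to absent from MDA-MB-231, with 3, 2, 8 and 0 counts with YES1i, against 8, 6, 3 and 4 counts with DMSO. The ratio of these levels was 0.679 (95% interval 0.312 to 1.42, exact, for counting error only), so that no difference was detectable at this depth. The fitted log2 fold change of -0.54 ± 0.61 became -1.41 without YES1i library 3 and -0.11 without YES1i library 4. SUM159 had 88.9, 89.6, 99.98 and 87.7 CPM with YES1i, against 16.2, 10.97, 13.5 and 11.5 CPM with DMSO. The SUM159 groups lay far apart, at a log2 fold change of 2.79 ± 0.12 and a 6.90-fold higher level with YES1i, and per kilobase of gene length it reached 14.2 CPM with YES1i, where IGFBP3 reached 4.27 CPM.

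IGFBP6 (ENSG00000167779, chr12:53097436-53102345, plus strand), whose product prefers IGF-II, was the only binding protein of the 4 with a higher level with YES1i in both lines. It had 50.2, 51.8, 58.0 and 53.6 CPM with YES1i in MDA-MB-231, against 43.2, 42.6, 42.2 and 45.5 CPM with DMSO. SUM159 had 85.5, 72.2, 71.6 and 77.7 CPM with YES1i, against 46.9, 53.7, 49.9 and 47.3 CPM with DMSO. Neither pair of groups overlapped. The log2 fold change in MDA-MB-231 was 0.30 ± 0.07 (edgeR adjusted p = 0.000342), and in SUM159 it was 0.64 ± 0.06.

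Per kilobase of gene length in the deposited table, IGFBP4 made up most of the summed level of the 4 binding proteins in every group. Its share was 92.7% with YES1i and 94.8% with DMSO in MDA-MB-231, and 87.7% with YES1i and 89.7% with DMSO in SUM159. IGFBP6 followed with 5.67% with YES1i and 3.44% with DMSO in MDA-MB-231, and 9.24% with YES1i and 9.58% with DMSO in SUM159. IGFBP5 held 2.32% with YES1i and 0.533% with DMSO in SUM159, where IGFBP3 held 0.697% with YES1i and 0.204% with DMSO. The large relative differences of IGFBP3 and IGFBP5 in SUM159 thus concerned a small part of the binding protein RNA.

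**Figure D2:**
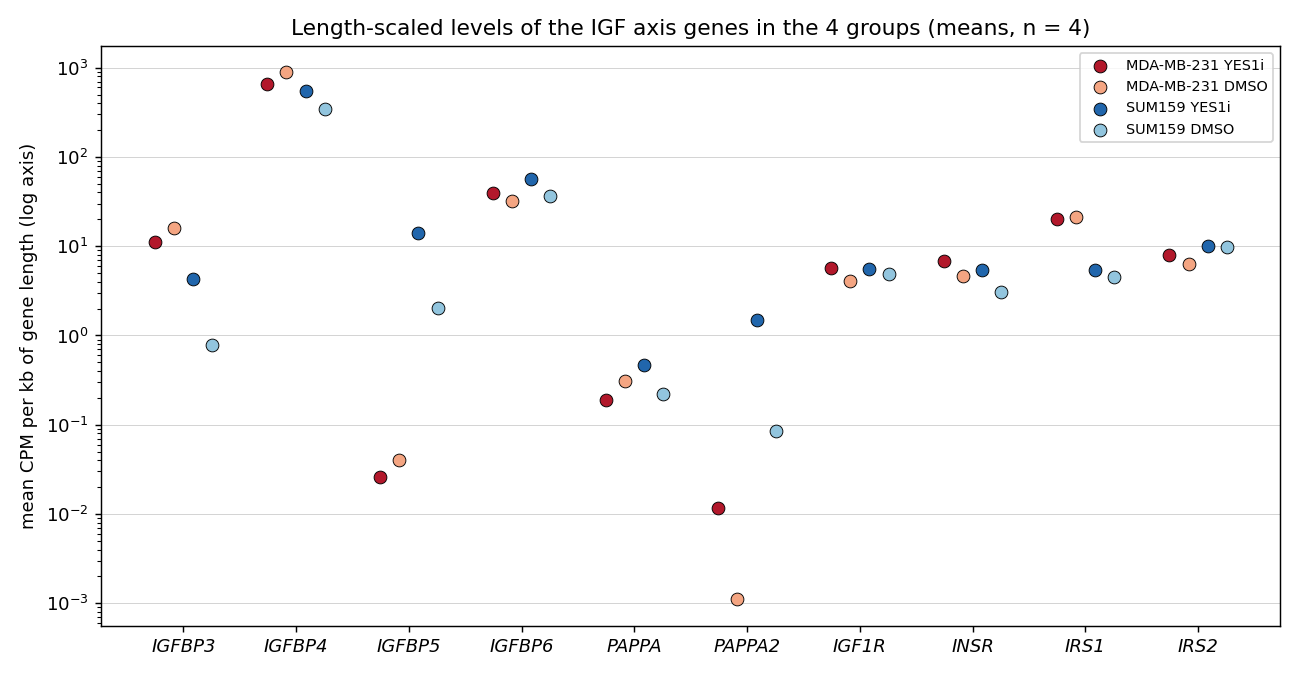
Mean level per kilobase of gene length (log axis, CPM per kb) of the 10 genes (x axis) in the 4 groups, each point the mean of 4 libraries. IGFBP4 stood highest in each group, at 345 to 888 CPM per kb, and both pappalysins lay below 1.5 CPM per kb in every group.

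The pappalysins were expressed at low levels, and PAPPA, like IGFBP3 and IGFBP4, fell with YES1i in MDA-MB-231. PAPPA (ENSG00000182752, chr9:116153804-116402322, plus strand) had 2.18, 2.80, 1.78 and 2.00 CPM with YES1i in MDA-MB-231, against 3.92, 3.32, 3.23 and 3.78 CPM with DMSO. In SUM159 it had 5.48, 5.11, 4.81 and 5.97 CPM with YES1i, against 2.35, 2.13, 2.39 and 3.47 CPM with DMSO. The groups did not overlap in either line. The log2 fold change was -0.72 ± 0.18 in MDA-MB-231 (edgeR adjusted p = 0.00152) and 1.06 ± 0.17 in SUM159, where the level was 2.09-fold higher with YES1i.

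PAPPA2 (ENSG00000116183, chr1:176463171-176845605, plus strand) had the largest relative difference of the 10 genes. SUM159 had 281, 361, 315 and 319 counts with YES1i, against 45, 13, 16 and 15 counts with DMSO, in libraries of different depth. These are 16.7, 16.8, 17.4 and 13.8 CPM with YES1i and 1.29, 0.839, 0.734 and 0.881 CPM with DMSO. The lowest YES1i library thus stood far above the highest DMSO library, and the log2 fold change was 4.04 ± 0.19, a 16.4-fold higher level. In MDA-MB-231, 3, 3, 0 and 3 counts were found with YES1i, against 1, 0, 0 and 0 with DMSO. The groups overlapped at 0, and the ratio of 9 counts with YES1i to 1 with DMSO was 9.87. Its exact 95% interval of 1.37 to 433 is for counting error only and leaves out the spread between libraries. It is not read as a test.

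Both receptors were higher with YES1i in both lines. IGF1R (ENSG00000140443, chr15:98648539-98964530, plus strand) had 81.1, 82.6, 75.3 and 76.6 CPM with YES1i in MDA-MB-231, against 59.4, 55.9, 55.1 and 55.5 CPM with DMSO, and rose by 0.48 ± 0.05 on the log2 scale (edgeR adjusted p = 6.47e-09). In SUM159 it had 76.2, 78.3, 77.8 and 75.1 CPM with YES1i, against 69.2, 64.2, 67.7 and 68.4 CPM with DMSO, a log2 fold change of 0.19 ± 0.05. The groups did not overlap in either line, and the YES1i groups of the lines overlapped each other.

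INSR (ENSG00000171105, chr19:7112255-7294034, minus strand), the receptor for insulin, which also forms hybrids with IGF1R, had 75.4, 71.2, 69.9 and 69.4 CPM with YES1i in MDA-MB-231, against 47.5, 45.9, 47.7 and 50.3 CPM with DMSO. It rose there by 0.58 ± 0.06 on the log2 scale (edgeR adjusted p = 3.44e-09). SUM159 had 60.1, 54.1, 55.2 and 56.5 CPM with YES1i, against 29.1, 35.2, 32.6 and 32.8 CPM with DMSO. That is a log2 fold change of 0.80 ± 0.06, or a 1.75-fold higher level, and no 2 of the 4 groups overlapped.

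The substrates differed from each other. IRS1 (ENSG00000169047, chr2:226731317-226799759, minus strand) had 209, 199.7, 211 and 193 CPM with YES1i in MDA-MB-231, against 201, 216, 215 and 216 CPM with DMSO. The groups overlapped and the log2 fold change of -0.06 ± 0.05 did not pass the test (95% interval -0.17 to 0.05, edgeR adjusted p = 0.318). SUM159 had 56.5, 50.8, 51.7 and 56.4 CPM with YES1i, against 43.0, 48.6, 45.3 and 45.2 CPM with DMSO, without overlap, at a log2 fold change of 0.25 ± 0.06. IRS2 (ENSG00000185950, chr13:109752698-109786568, minus strand) differed with YES1i in MDA-MB-231, with overlap in SUM159. It had 62.2, 63.6, 73.1 and 60.3 CPM with YES1i in MDA-MB-231, against 50.8, 49.2, 51.2 and 53.2 CPM with DMSO, and rose by 0.34 ± 0.07 on the log2 scale (edgeR adjusted p = 0.000255). In SUM159, IRS2 had 82.6, 72.2, 84.1 and 84.8 CPM with YES1i, against 77.3, 85.9, 88.8 and 69.0 CPM with DMSO. These groups overlapped, at a log2 fold change of 0.01 ± 0.07 (95% interval -0.14 to 0.17), the least of the 10 genes in that line.

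Of the 8 genes other than IGFBP5 and PAPPA2, 4 were called higher and 3 lower with YES1i in MDA-MB-231 at an edgeR adjusted p under 0.05, and IRS1 was not called. Of all tested genes, 26.8% were called higher and 22.1% lower there (48.9% in all). The median log2 fold change of the 8 was 0.12, against 0.03 over all tested genes. In SUM159 no calls are counted for the 10 genes. Their median log2 fold change there was 0.73, against 0.02 over all tested genes. Since SUM159 led to the choice of genes, nothing is read from that median. With 51.6% of all tested genes called in SUM159, a call by itself does not set a gene apart.

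**Figure D3:**
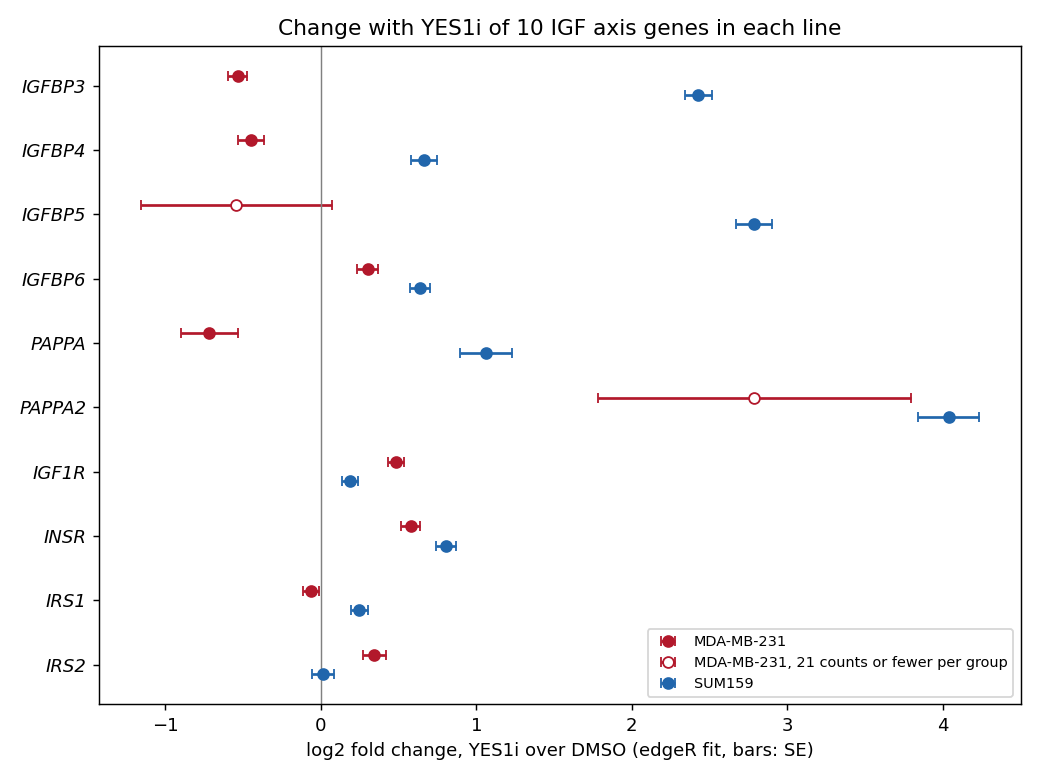
Log2 fold change of YES1i over DMSO (with SE) of the 10 genes in MDA-MB-231 and in SUM159. IGFBP3, IGFBP4 and PAPPA lay below 0 in MDA-MB-231 and above 0 in SUM159, IGFBP6, IGF1R and INSR above 0 in both, and PAPPA2 and IGFBP5 had 21 counts or fewer per group in MDA-MB-231.

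Whether the lines differed in the response was tested by the difference between the 2 log2 fold changes, MDA-MB-231 minus SUM159, for the 7 genes other than IGFBP3, IGFBP5 and PAPPA2. It uses the SUM159 libraries that led to the choice of the set. The difference was -1.11 ± 0.12 for IGFBP4 (edgeR adjusted p = 3.73e-07) and -1.78 ± 0.25 for PAPPA (edgeR adjusted p = 1.68e-06), which lay lower with YES1i in one line and higher in the other. IGFBP6 (-0.34 ± 0.09, edgeR adjusted p = 0.00565) and IRS1 (-0.31 ± 0.07, edgeR adjusted p = 0.00187) had the higher log2 fold change in SUM159. IGF1R (0.29 ± 0.07, edgeR adjusted p = 0.00271) and IRS2 (0.33 ± 0.10, edgeR adjusted p = 0.0133) had the higher one in MDA-MB-231, but upper quartile scaling gave adjusted p-values of 0.0685 for IGF1R and 0.0887 for IRS2. Without MDA-MB-231 YES1i library 3 the IRS2 difference missed the threshold, at 0.0502.

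For IGFBP5 the fitted difference of -3.33 ± 0.65 is given with no test. It rests on 13 counts in MDA-MB-231 with YES1i and 21 with DMSO, and ran from -4.20 to -2.90 when single libraries were left out. INSR differed by -0.23 ± 0.09 (edgeR adjusted p = 0.0475), a call lost with no filter on low counts (0.073) and with a replicate block (0.0786). It was also lost without any one of 11 libraries (MDA-MB-231 YES1i 2, 3 or 4 and DMSO 1, 3 or 4, SUM159 YES1i 1, 3 or 4 and DMSO 1 or 4), at 0.0525 to 0.137. IGFBP3 differed by -2.96 with no test, since it was picked for its SUM159 value. For PAPPA2 the fitted difference is neither given here nor tested, because MDA-MB-231 held only 10 counts in all. Only its range when single libraries were left out is given further below. All 7 tested differences were called, 2 with the higher log2 fold change in MDA-MB-231 and 5 with the higher one in SUM159. Over all tested genes 31.1% were called, 19.1% with the higher log2 fold change in MDA-MB-231 and 12.1% with the higher one in SUM159.

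Levels of the 10 genes also differed between the lines without the inhibitor. In DMSO, of the 7 genes tested, 4 were called higher and 3 lower in MDA-MB-231 than in SUM159, against 37.8% and 38.7% of all tested genes. This comparison shares the SUM159 DMSO libraries with the SUM159 comparison above. IGFBP3 averaged 73.4 ± 2.61 CPM in MDA-MB-231 and 3.55 ± 0.316 CPM in SUM159, a 20.3-fold higher level in MDA-MB-231 (log2 4.34 ± 0.08). IRS1 averaged 212 ± 7.47 CPM in MDA-MB-231 and 45.5 ± 2.32 CPM in SUM159, 4.67-fold higher in MDA-MB-231 (log2 2.22 ± 0.05, edgeR adjusted p = 1e-24). IGFBP4 (log2 1.36 ± 0.09, edgeR adjusted p = 7.66e-12) and INSR (log2 0.57 ± 0.06, edgeR adjusted p = 2.64e-09) were also higher in MDA-MB-231.

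In the other direction, IGFBP5 averaged 0.260 ± 0.116 CPM in MDA-MB-231 and 13.03 ± 2.37 CPM in SUM159, with 21 counts in all over the MDA-MB-231 libraries. IRS2 was lower in MDA-MB-231 (log2 -0.65 ± 0.07, edgeR adjusted p = 3.58e-09), as was IGF1R (-0.25 ± 0.05, edgeR adjusted p = 7.2e-05). PAPPA2 had 1 count over the MDA-MB-231 DMSO libraries, while its SUM159 DMSO libraries had 13 to 45 each. IGFBP6 (-0.19 ± 0.07, edgeR adjusted p = 0.0122) and PAPPA (0.48 ± 0.17, edgeR adjusted p = 0.0147) had smaller differences, and the PAPPA groups overlapped. IGFBP6 missed the threshold without MDA-MB-231 DMSO library 3 (0.054) or SUM159 DMSO library 2 (0.0758), and PAPPA without SUM159 DMSO library 1 (0.0518).

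Neighbouring binding protein genes differed between the lines along with 2 of the 10. IGFBP1 and IGFBP3 lie tail to tail on chromosome 7 with 18.6 kb and 0 annotated genes between them, and IGFBP2 and IGFBP5 likewise on chromosome 2 with 7.67 kb and 0 genes between them. IGFBP1 averaged 15.2 ± 1.10 CPM with YES1i and 24.8 ± 1.26 CPM with DMSO in MDA-MB-231 and fell there (log2 fold change -0.71, edgeR adjusted p = 1.97e-06), as IGFBP3 did, while SUM159 had 0 counts with YES1i and 2 with DMSO. IGFBP2 averaged 0.313 ± 0.213 CPM with YES1i and 0.378 ± 0.00974 CPM with DMSO in MDA-MB-231, and 62.9 ± 9.84 CPM with YES1i and 52.8 ± 7.35 CPM with DMSO in SUM159. In DMSO the fitted log2 difference of IGFBP2, MDA-MB-231 minus SUM159, was -7.10 ± 0.20. It is given with no test, since IGFBP2 had only 31 counts in all over the MDA-MB-231 DMSO libraries. IGFBP1 and IGFBP3 were thus both higher in MDA-MB-231, and IGFBP2 and IGFBP5 both higher in SUM159. With YES1i in SUM159, IGFBP2 had a log2 fold change of 0.26 with overlapping groups (edgeR adjusted p = 0.0482), in the same direction as that of IGFBP5 and smaller.

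The ligands and other IGF axis genes came from a list of 56 genes, of which 47 were tested. IGF1 had 0, 0, 1 and 3 counts in all and IGF2 had 1, 1, 0 and 1, summed over the libraries of MDA-MB-231 with YES1i, MDA-MB-231 with DMSO, SUM159 with YES1i and SUM159 with DMSO. Neither ligand was thus detectable above a few counts in any group. Of the 47, 19 rose and 12 fell with YES1i in MDA-MB-231 (26.8% and 22.1% of all genes), with a median log2 fold change of 0.10 against 0.03 over all genes. In SUM159, 15 were called higher and 17 lower (25.1% and 26.5% of all genes), with a median of 0.04 against 0.02. Both lines called 10 of them higher and 9 lower, and 2 of them, ADAM9 and IGFBP7, were called in opposite directions. Of all tested genes, 12.4% were called higher in both lines, 14.0% lower in both and 5.17% in opposite directions.

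Stanniocalcins, the inhibitors of the pappalysins, differed in level by line, and STC1 also differed in its change with YES1i. STC1 averaged 59.0 ± 3.53 CPM with YES1i and 64.0 ± 2.80 CPM with DMSO in MDA-MB-231 (log2 fold change -0.12, edgeR adjusted p = 0.21). It averaged 28.5 ± 3.76 CPM with YES1i and 14.6 ± 1.15 CPM with DMSO in SUM159 (0.96 ± 0.08, edgeR adjusted p = 1.01e-10), and the lines differed in this change by -1.08 (edgeR adjusted p = 1.07e-08). STC2 averaged 1.73 ± 0.280 CPM with YES1i and 1.32 ± 0.445 CPM with DMSO in MDA-MB-231 (0.39, edgeR adjusted p = 0.232). In SUM159 it had 479.5 ± 39.2 CPM with YES1i and 282 ± 37.2 CPM with DMSO (0.77 ± 0.09, edgeR adjusted p = 3.95e-07). The difference between the lines in the STC2 change was not called (-0.38 ± 0.28, edgeR adjusted p = 0.34). In SUM159 the genes of both pappalysins and of both inhibitors therefore had higher values with YES1i than with DMSO.

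Among proteins that take up or cut IGF axis proteins, IGF2R, which carries IGF-II and mannose-6-phosphate cargo to lysosomes, rose in both lines. It averaged 699 ± 28.8 CPM with YES1i and 354 ± 9.04 CPM with DMSO in MDA-MB-231 (log2 fold change 0.98 ± 0.06, edgeR adjusted p = 3.61e-14). SUM159 averaged 416 ± 48.6 CPM with YES1i and 217 ± 6.23 CPM with DMSO (0.94 ± 0.06, edgeR adjusted p = 1.68e-13), and the difference between the lines was 0.05 (95% interval -0.14 to 0.23). The lysosomal protease CTSD, which can cut binding proteins, averaged 1359 ± 22.2 CPM with YES1i and 562 ± 11.96 CPM with DMSO in MDA-MB-231, and 587 ± 60.1 CPM with YES1i and 177 ± 3.61 CPM with DMSO in SUM159. The log2 fold changes of CTSD were 1.27 in MDA-MB-231 (edgeR adjusted p = 1.85e-17) and 1.73 in SUM159 (edgeR adjusted p = 6.77e-20). ADAM28, a metalloprotease that can cut IGFBP3, averaged 12.3 ± 0.823 CPM with YES1i and 4.79 ± 0.533 CPM with DMSO in MDA-MB-231 (1.36, edgeR adjusted p = 3.03e-08). In SUM159, ADAM28 was near the floor, at 0.500 ± 0.262 CPM with YES1i and 0.400 ± 0.198 CPM with DMSO.

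IGFBP7, a related secreted protein with low affinity for IGFs, averaged 590.0 ± 25.9 CPM with YES1i and 434 ± 22.6 CPM with DMSO in MDA-MB-231, and 87.9 ± 13.4 CPM with YES1i and 145 ± 16.8 CPM with DMSO in SUM159. Its log2 fold changes were 0.44 in MDA-MB-231 (edgeR adjusted p = 0.000264) and -0.72 in SUM159 (edgeR adjusted p = 1.57e-06). Its span overlaps POLR2B on the opposite strand, whose count is 57.2% of its own, and these values are uncertain because strand use in counting is not given in the sources used here. IGFBPL1 fell in MDA-MB-231, at 4.22 ± 0.499 CPM with YES1i and 8.13 ± 1.16 CPM with DMSO (-0.94, edgeR adjusted p = 4.32e-05), and had 0 counts in SUM159.

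Within the cell, PTPN1 and PIK3R3 were lower with YES1i in both lines. PTPN1, a phosphatase of the insulin and IGF receptors, averaged 197 ± 6.75 CPM with YES1i and 261 ± 4.10 CPM with DMSO in MDA-MB-231, and 119.7 ± 3.81 CPM with YES1i and 215 ± 9.24 CPM with DMSO in SUM159. Its log2 fold changes were -0.41 in MDA-MB-231 (edgeR adjusted p = 1.33e-08) and -0.84 in SUM159 (edgeR adjusted p = 5.98e-15). SOCS3, which limits signalling through IRS proteins, averaged 13.1 ± 2.21 CPM with YES1i and 22.6 ± 3.95 CPM with DMSO in SUM159 (-0.78), and differed by -0.20 in MDA-MB-231 (edgeR adjusted p = 0.089). PIK3R3, a regulatory subunit of PI3 kinase, had log2 fold changes of -0.71 in MDA-MB-231 (edgeR adjusted p = 1.88e-05) and -0.72 in SUM159 (edgeR adjusted p = 2.86e-06). It averaged 4.77 ± 0.663 CPM with YES1i and 7.83 ± 0.942 CPM with DMSO in MDA-MB-231, and 8.51 ± 0.395 CPM with YES1i and 14.1 ± 1.16 CPM with DMSO in SUM159.

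FOXO factors and their target genes stand downstream of the receptors and IRS proteins. FOXO1 averaged 14.7 ± 1.96 CPM with YES1i and 5.09 ± 0.905 CPM with DMSO in MDA-MB-231, and 112 ± 7.62 CPM with YES1i and 75.5 ± 4.60 CPM with DMSO in SUM159. Its log2 fold change was 1.52 in MDA-MB-231 (edgeR adjusted p = 4.44e-12) and 0.56 in SUM159 (edgeR adjusted p = 7.99e-07). FOXO4 changed by 1.48 in MDA-MB-231 and 0.52 in SUM159 on the same scale, past the threshold in both. FOXO3 averaged 109 ± 3.66 CPM with YES1i and 59.0 ± 2.33 CPM with DMSO in MDA-MB-231 (0.88, edgeR adjusted p = 5.79e-15), and 182 ± 7.02 CPM with YES1i and 179 ± 5.49 CPM with DMSO in SUM159 (0.02, edgeR adjusted p = 0.701). Of 18 FOXO-responsive genes, all tested, 15 rose and 0 fell with YES1i in MDA-MB-231, against 26.8% and 22.1% of all genes, with a median log2 fold change of 0.53. In SUM159, 13 were called higher and 4 lower, against 25.1% and 26.5% of all genes, with a median of 0.51. Both lines called 11 higher and 0 lower, and 4 in opposite directions, against 12.4%, 14.0% and 5.17% of all genes. The 4 called lower in SUM159 were KLF6, PINK1, SOD2 and TXNIP. INSR, IRS2 and IGFBP1 were placed with the IGF axis genes and are not among the 18. In MDA-MB-231, INSR and IRS2 rose with YES1i and IGFBP1 fell (log2 fold change -0.71).

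PDK4, which limits the use of glucose by mitochondria, averaged 27.5 ± 1.06 CPM with YES1i and 3.12 ± 0.471 CPM with DMSO in MDA-MB-231, and 51.0 ± 3.22 CPM with YES1i and 5.69 ± 1.09 CPM with DMSO in SUM159. Its log2 fold change was 3.13 in MDA-MB-231 and 3.16 in SUM159, and, like the next 4 genes, it was called in both lines. PIK3IP1, an inhibitor of PI3 kinase, had changes of 3.26 in MDA-MB-231 and 0.99 in SUM159, averaging 21.4 ± 1.48 CPM with YES1i and 2.22 ± 0.384 CPM with DMSO in MDA-MB-231, and 9.82 ± 2.06 CPM with YES1i and 5.01 ± 0.611 CPM with DMSO in SUM159. FBXO32, a ubiquitin ligase subunit, had changes of 2.25 in MDA-MB-231 and 1.35 in SUM159. SOD2, the mitochondrial superoxide dismutase, averaged 122 ± 6.35 CPM with YES1i and 61.0 ± 1.89 CPM with DMSO in MDA-MB-231, and 490.3 ± 42.6 CPM with YES1i and 752 ± 52.2 CPM with DMSO in SUM159. SOD2 overlaps WTAP, whose count is 20.4% of its own. SOD2 changed by 1.00 in MDA-MB-231 and -0.62 in SUM159 on the log2 scale, and PINK1, a mitochondrial kinase, likewise changed in opposite directions, with log2 fold changes of 0.42 in MDA-MB-231 and -0.38 in SUM159. INSR, one of the 10 and a known FOXO target, was higher with YES1i in both lines, whereas the IRS2 groups of SUM159 overlapped.

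**Figure D4:**
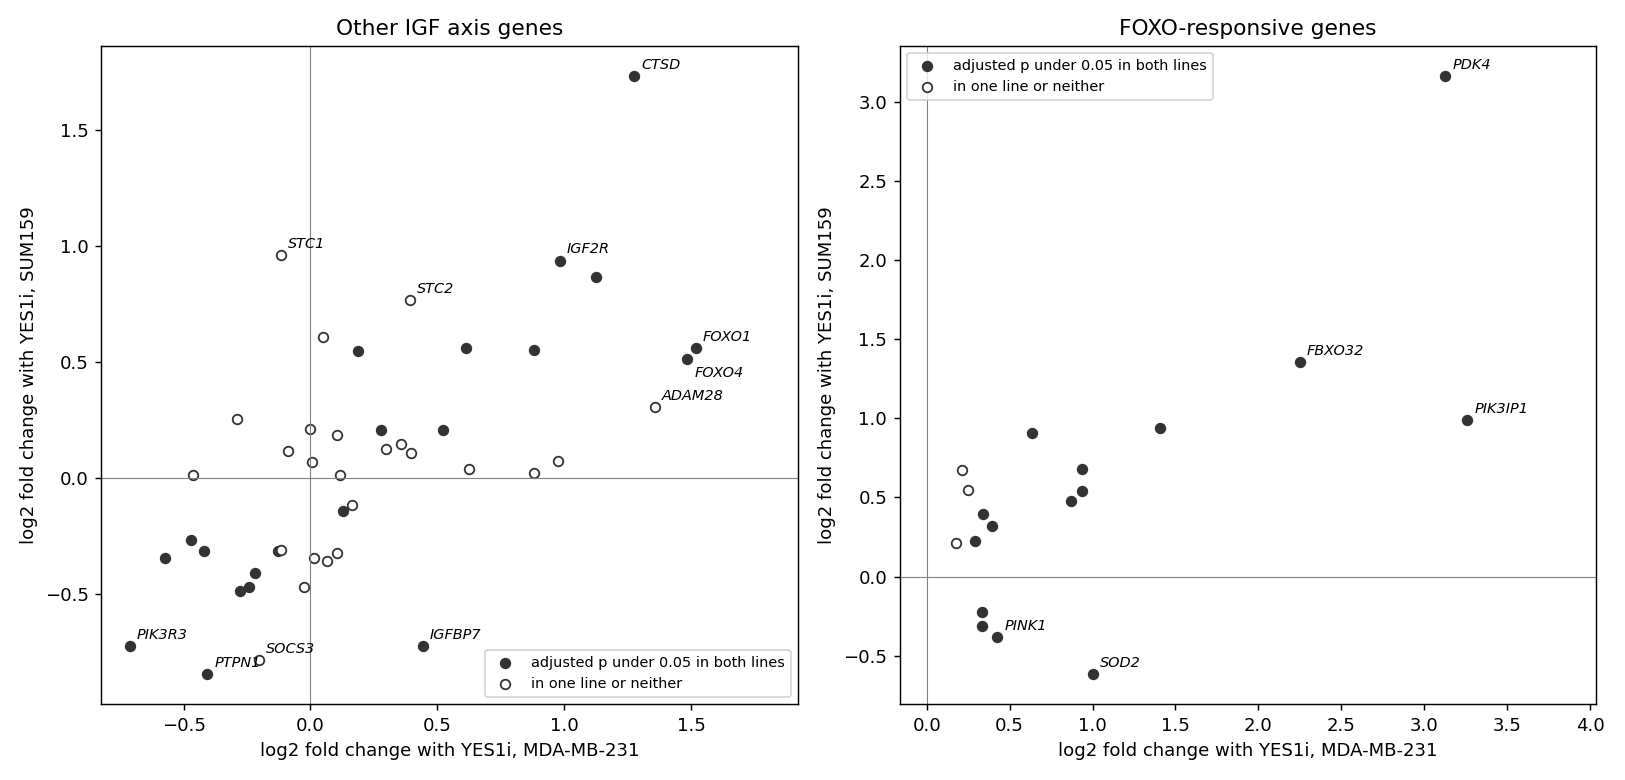
Log2 fold change of YES1i over DMSO in MDA-MB-231 (x axis) and SUM159 (y axis) of the other IGF axis genes (left) and the FOXO-responsive genes (right), filled where the edgeR adjusted p was under 0.05 in both lines. IGFBP1 and IGFBPL1 are not drawn, with 0 to 2 counts per group in SUM159; CTSD, IGF2R and PDK4 lie high in both lines, and IGFBP7 and SOD2 lie on opposite sides of 0.

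The genes whose profile was most like that of IGFBP3 over the 16 libraries, by the root mean square difference of log2 CPM centred on each gene's mean and out of 13789 candidates, were SERPINE2 (0.318), PAK6 (0.416) and ANKRD65 (0.425). SERPINE2, a secreted inhibitor of serine proteases, averaged 9.50 ± 0.285 CPM with YES1i and 10.6 ± 0.461 CPM with DMSO in MDA-MB-231, and 3.94 ± 0.526 CPM with YES1i and 0.817 ± 0.0875 CPM with DMSO in SUM159. PAK6 averaged 0.0401 CPM and ANKRD65 0.117 CPM in SUM159 with DMSO, so few counts shape their profiles there. In MDA-MB-231, where IGFBP3 fell, ANKRD65 averaged 2.93 CPM with YES1i and 2.42 CPM with DMSO. The genes most like PAPPA2 were KRTAP1-5 (0.818), MASP1 (0.828) and CPAMD8 (0.87). MASP1, a serine protease of the complement lectin pathway, averaged 0.0522 ± 0.0413 CPM with YES1i and 0.0369 ± 0.0249 CPM with DMSO in MDA-MB-231, and 7.30 ± 0.392 CPM with YES1i and 1.37 ± 0.315 CPM with DMSO in SUM159. The 3 genes like PAPPA2 shared with it a near absence from MDA-MB-231, where few counts shape the profile.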

How the data were processed

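Poly(A) RNA of 16 libraries was sequenced. The values are raw read counts by gene in one table that the authors deposited, with gene lengths and coordinates in other columns. HISAT2 2.0.5, featureCounts 1.5.0-p3 and hg38 are named, without role or order, per the submitters' processing notes. Strand use, the annotation release, and the treatment of overlapping genes and multi-mapped reads were not given in the sources used here. Counts entered edgeR 4.0.16 under R 4.3.3 unchanged, after filterByExpr and with TMM scaling. A single model with 1 mean for each of the 4 groups was fitted to all libraries, and contrasts were tested by robust quasi-likelihood. Benjamini-Hochberg adjustment ran over the 17647 tested genes of each comparison, with 0.05 as the threshold for a call. Levels are mean ± SD over 4 libraries, and SEs come from the F statistic. Levels per kilobase use the deposited gene length. Ratios of low counts have exact conditional binomial intervals.

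The 10 genes, the gene lists and the tests were chosen with earlier results of these data known. Genes outside the 10 were named by a rule: in each line the 3 most raised and the 3 most lowered called genes of the other IGF axis list at 5 CPM or more, and the 2 and 2 of the FOXO list. IGF1, IGF2, STC1, STC2, IGFBP2, IGFBP7, YES1 and the 3 genes most like IGFBP3 and PAPPA2 were added. ADAM9, CDH2, FN1, FOXO3, KLF6, KRT8, KRT18, KRT19, SPARC, TXNIP, VIM and ZEB1 were named after their values were seen. Where a symbol had 2 identifiers (IGF2, SOD2), the one with more counts was used. Promoters of all 10 genes were matched by symbol in RefSeq. The steps were tested on simulated counts. The alternatives tried were scaling by RLE or upper quartile, DESeq2 1.42.0 or limma-voom (limma 3.58.1) as the test, other count filters, fits of each line alone, a block for the replicate number, a threshold of 0.01 and the removal of each library in turn.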

Additional observations from a re-analysis of the deposited data

Results flagged for a closer look

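Several genes differed between the lines in their change with YES1i, given as the log2 fold change in MDA-MB-231 minus that in SUM159. For IGFBP3 this was -2.96, with the groups of each line apart and in opposite directions, and the difference was not tested. By the edgeR test of the difference, with the adjusted p-values given above, IGFBP4 had -1.11, IGFBP6 -0.34, PAPPA -1.78, IGF1R 0.29, INSR -0.23, IRS1 -0.31 and IRS2 0.33. The calls of IGF1R and IRS2 were lost with upper quartile scaling. That of INSR was lost with no filter, with a replicate block and without any one of several libraries. Other IGF axis genes that differed were FOXO1 at 0.96, FOXO4 at 0.97, CTSD at -0.46, STC1 at -1.08, PTPN1 at 0.44, SOCS3 at 0.58 and IGFBP7 at 1.16. For ADAM28 the fitted difference of 1.05 is given with no test, since SUM159 held only 42 counts with YES1i and 38 with DMSO. The FOXO-responsive genes PIK3IP1 (2.27), FBXO32 (0.90), SOD2 (1.62) and PINK1 (0.81) differed as well. With ADAM28 left out, the edgeR adjusted p-values of these other IGF axis and FOXO-responsive genes ran up to 0.00405.

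A single library stood apart from the other 3 of its group, by Dixon's test, in 5 of 110 groups of 4 checked over 31 genes, and chance gives about 1 in 20. IGFBP5 was highest in SUM159 YES1i library 3 at 99.98 CPM. IRS1 was lowest in MDA-MB-231 DMSO library 1 at 201.1 CPM. CTSD was lowest in SUM159 DMSO library 4 at 171.2 CPM, STC2 highest in SUM159 DMSO library 2 at 337.1 CPM, and IGFBP2 highest in MDA-MB-231 YES1i library 1 at 0.6305 CPM.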

How the results depend on the processing

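Of 10 genes, IGFBP3, IGFBP4, PAPPA, IGFBP6, IGF1R, INSR and IRS2 kept their direction and call in MDA-MB-231 under every alternative run. IRS2 aside, the fitted log2 fold changes in SUM159 stayed positive. That is a description only, since SUM159 led to the choice of genes. Upper quartile scaling moved the median of all genes by 0.119 (log2) in SUM159 and by -0.109 in the difference between lines. The number of the 10 genes called with a higher log2 fold change in MDA-MB-231 than in SUM159 was 2, but 0 with upper quartile scaling, 1 at an adjusted p under 0.01, and 1 to 2 when single libraries were left out. Over all genes, 2127 were called with a lower log2 fold change in MDA-MB-231 than in SUM159, and 1372 at an adjusted p under 0.01. IRS2 in SUM159, at 0.01, ranged over -0.0553 to 0.0723 when single libraries were left out, with values of -0.0024, -0.0085, -0.0100 and -0.0553 without SUM159 YES1i library 3 or 4 or DMSO library 1 or 4. The fitted PAPPA2 difference between lines ranged over -1.57 to 0.33 in the same way and was 0.33 without MDA-MB-231 DMSO library 1, which holds the single DMSO count of that line. IRS1 in MDA-MB-231 was called lower in a fit of that line alone (-0.10, edgeR adjusted p = 0.0295). With a replicate block, INSR's difference between lines was -0.23 (edgeR adjusted p = 0.0786), and no other call of the 10 genes was lost. Libraries with the same number did not deviate together (correlations of -0.107 to 0.012), so the numbers were not taken as pairs. Where not stated otherwise, the cause was not tested. Counts limit IGFBP5 and PAPPA2 in MDA-MB-231.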
